A study of Mus musculus with 11 samples.

Results

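The genes described are 40 listed genes of the collagens, the elastic fibre, the enzymes that cross-link both, and the proteoglycans, glycoproteins and regulators that sit with them in the extracellular matrix. They are a list of gene names with no threshold on a measured value, but the list was drawn up with earlier results of these data known, so its shares set against all genes below are descriptions and not independent evidence. Of the 40, 38 were measured, out of 19938 genes in all. Fbn1 had no row under its symbol, and Loxl2 had only a row shared with another gene; neither was analysed here. Each of the 38 was read by 1 row of the table. The level is a log2 expression value, so a difference of 1 is a doubling, and levels of different genes are not compared because each gene has its own probes.

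Lung tissue of 129S1 mice was measured on 11 arrays. There were 2 control samples, 3 of mice given aspirin at 4 mg per kg, 3 given triptolide at 1 mg per kg and 3 given the combination of both at those doses. Dosing was by gavage, 5 days a week for 2 months, in PBS; the controls are titled untreated while the protocol lists a buffer group, so it is not settled whether they were gavaged. Sex and age are not in the labels, and nothing says that samples of a group came from separate animals, so the p-values measure only the spread between these samples. No genetic alteration is named for any group. Whole lung mixes many cell types, so fewer matrix-producing cells and less RNA per cell cannot be told apart anywhere below.

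Collagens are triple helices of alpha chains. Fibrillar collagens bear tension around airways and vessels, network collagens form the basement membranes that alveolar cells and capillaries share, and other types link fibrils or anchor cells. Elastic fibres, which let the lung recoil, are built by laying elastin on microfibrils with the help of fibulins and latent TGF-beta binding proteins, and lysyl oxidases then cross-link elastin and collagen. Most of these proteins are made by fibroblasts and smooth muscle cells, and basement membrane chains also by endothelium and epithelium.

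RefSeq promoter windows of build GRCm38.p6 were found for 24 of the 38 measured genes. The windows of Fbln5, Mfap2, Postn and Sparc are shown because these are the 4 genes with the smallest p of the combination against control, among those whose window lies at the outermost annotated start and overlaps no other gene. Each runs 5′ to 3′ over the 250 bases before the start of transcription, and capitals mark matches on either strand. The letters searched were those of the TATA box (TATAAA), the core of the CCAAT box (CCAAT), the Sp1 GC box (GGGCGG), the Smad binding element (CAGAC), the AP-1 site (TGAGTCA) and the TEAD site (GGAATG).
Fbln5: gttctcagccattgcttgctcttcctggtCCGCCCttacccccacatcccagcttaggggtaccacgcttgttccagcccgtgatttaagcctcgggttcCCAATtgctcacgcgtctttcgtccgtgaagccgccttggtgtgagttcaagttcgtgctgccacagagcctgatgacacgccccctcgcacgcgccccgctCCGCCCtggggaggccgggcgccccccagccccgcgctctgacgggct
Mfap2: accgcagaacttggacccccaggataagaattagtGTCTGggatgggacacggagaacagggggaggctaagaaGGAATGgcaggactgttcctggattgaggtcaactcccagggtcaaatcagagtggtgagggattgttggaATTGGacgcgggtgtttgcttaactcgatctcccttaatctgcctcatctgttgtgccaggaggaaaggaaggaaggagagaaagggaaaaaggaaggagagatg
Postn: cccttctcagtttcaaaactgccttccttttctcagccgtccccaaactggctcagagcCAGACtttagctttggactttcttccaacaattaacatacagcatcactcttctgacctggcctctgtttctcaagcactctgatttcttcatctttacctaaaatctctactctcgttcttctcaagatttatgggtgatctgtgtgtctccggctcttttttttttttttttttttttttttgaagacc
Sparc: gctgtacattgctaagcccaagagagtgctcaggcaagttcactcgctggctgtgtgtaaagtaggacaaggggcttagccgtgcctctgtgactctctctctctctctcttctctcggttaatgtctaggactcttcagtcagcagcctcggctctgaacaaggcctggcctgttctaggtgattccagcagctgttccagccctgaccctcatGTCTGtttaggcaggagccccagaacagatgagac
The Fbln5 window is chr12:101819120-101819369 on the minus strand, the Mfap2 window chr4:141010174-141010423 on the plus strand, the Postn window chr3:54359017-54359266 on the plus strand, and the Sparc window chr11:55420081-55420330 on the minus strand. Fbln5 held GGGCGG at 221 and 48 bases before the start and CCAAT at 150, Mfap2 held CAGAC at 215, GGAATG at 176 and CCAAT at 105, Postn held CAGAC at 191 and Sparc held CAGAC at 35. Over the windows of the 24 matrix genes, CAGAC was present in 13 (54.2%), against 42.2% of 27025 promoter windows of the same length, and GGGCGG in 12 (50%), against 33%. CCAAT was in 8 (33.3%) against 34.5%, TATAAA in 3 (12.5%) against 13%, TGAGTCA in 1 against 4.43%, and GGAATG in 2 against 12.6%. The middle of the matrix windows, from the lower to the upper quartile, had a GC content of 53.9% to 64.6%, against 44.8% to 60.8% over all windows, and GGGCGG is itself made of G and C. These matches are letters in a window and no measure of binding.

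The lung markers Sftpc, Ager, Scgb1a1 and Pecam1 read between 10.99 and 14.27 on every array, with no background level to set them against. Ager read 13.10 and 13.08 in the controls and 12.03, 12.65 and 12.85 in the combination. Pecam1 read 11.92 and 11.77 in the controls and 10.99, 11.14 and 11.38 in the combination. For Sftpc and Scgb1a1 these groups overlapped. Combination 1 stood apart, with a value of 60.2 on the first principal component of all genes, which carried 45.5% of the variance; the remaining arrays had values of -15.0 to 6.8. Its mean levels of cell cycle genes and of the 4 measured erythroid genes were 2.78 and 3.23 above the mean over the arrays, against at most -0.06 and 0.99 elsewhere, and most results below that include it are therefore also given without it. Sex-linked genes differed between arrays: the mean of the Y-linked Eif2s3y, Uty and Kdm5d was 5.81 to 5.94 in the controls, 5.67 to 6.73 in the combination and 8.88 to 9.09 with aspirin, while triptolide had 1 low array at 6.55 and 2 at 9.08 and 9.36. Aspirin against control therefore differs in this level too, and the drug and the sex-linked difference cannot be told apart there, nor in the combination against aspirin. Triptolide against control differs in it for 2 of the 3 triptolide arrays, so there the drug and the sex-linked difference are partly mixed. The same holds for the combination against triptolide. The combination arrays lay near the controls in this level.

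With the combination, nearly all matrix genes read lower than in the controls. The difference was below 0 for 37 of the 38 genes, against 47.2% of all genes, with a median of -0.36 against 0.01 over all genes. These shares move with the scaling: with each array centred on its median, 38 matrix genes were below 0 against 65.6% of all genes, and with quantile normalization 38 against 60.9%. The combination and control arrays did not overlap for 24 genes (63.2%), all of them lower, against 20.5% of all genes lower and 14.2% higher. No gene passed an adjusted p of 0.05 in limma's test with Benjamini-Hochberg adjustment over all genes, that is 0% of the 19938 genes and 0 of the 38; at an unadjusted p under 0.05, 17 of the 38 (44.7%) were lower and 0 higher, against 10.6% and 3.41% of all genes. Col15a1, a collagen of the basement membrane zone, was the 1 gene not below 0, at 0.01 ± 0.12, or 0.09 without the array described next.

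The size of this difference rests in part on 1 array. Combination 1 read below both controls for all 38 matrix genes, combination 2 for 29 and combination 3 for 27, against 42.2%, 42.6% and 37.7% of all genes. Combination 1 was the lowest of the 11 arrays for 29 matrix genes (76.3%), against 27.4% of all genes. Without it, the median difference was -0.18, 32 genes stayed below 0 against 50.2% of all genes, 24 did not overlap with the controls against 28.4%, and 11 were lower at an unadjusted p under 0.05 against 8.68%. The 5 that turned above 0 without it were Col4a4, Col14a1, Lox, Dcn and Lum.

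Of the 3 combination arrays, combination 3 had the mean level of matrix genes nearest to the controls, so leaving it out favours lower calls. Without it, 12 of the 38 matrix genes passed limma's adjusted p of 0.05, all lower, against 4.11% of all genes passing as lower. The arrays then kept include combination 1, and without combination 1 instead 0 of the 38 passed. The 12 were the collagen genes Col4a3 and Col12a1, the elastic fibre genes Fbln5, Mfap2 and Ltbp4, and the cross-linking enzyme Loxl1. The rest were the glycoproteins Fn1, Postn, Sparc and Edil3, and the regulators Pcolce and Timp3. The mean level over all 38 genes, each relative to its own mean over the arrays, was 0.19 and 0.18 in the controls, and -0.52, -0.11 and 0.03 in the combination. All 3 combination arrays thus lay below both controls, and they spread widely among themselves.

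**Figure D1:**
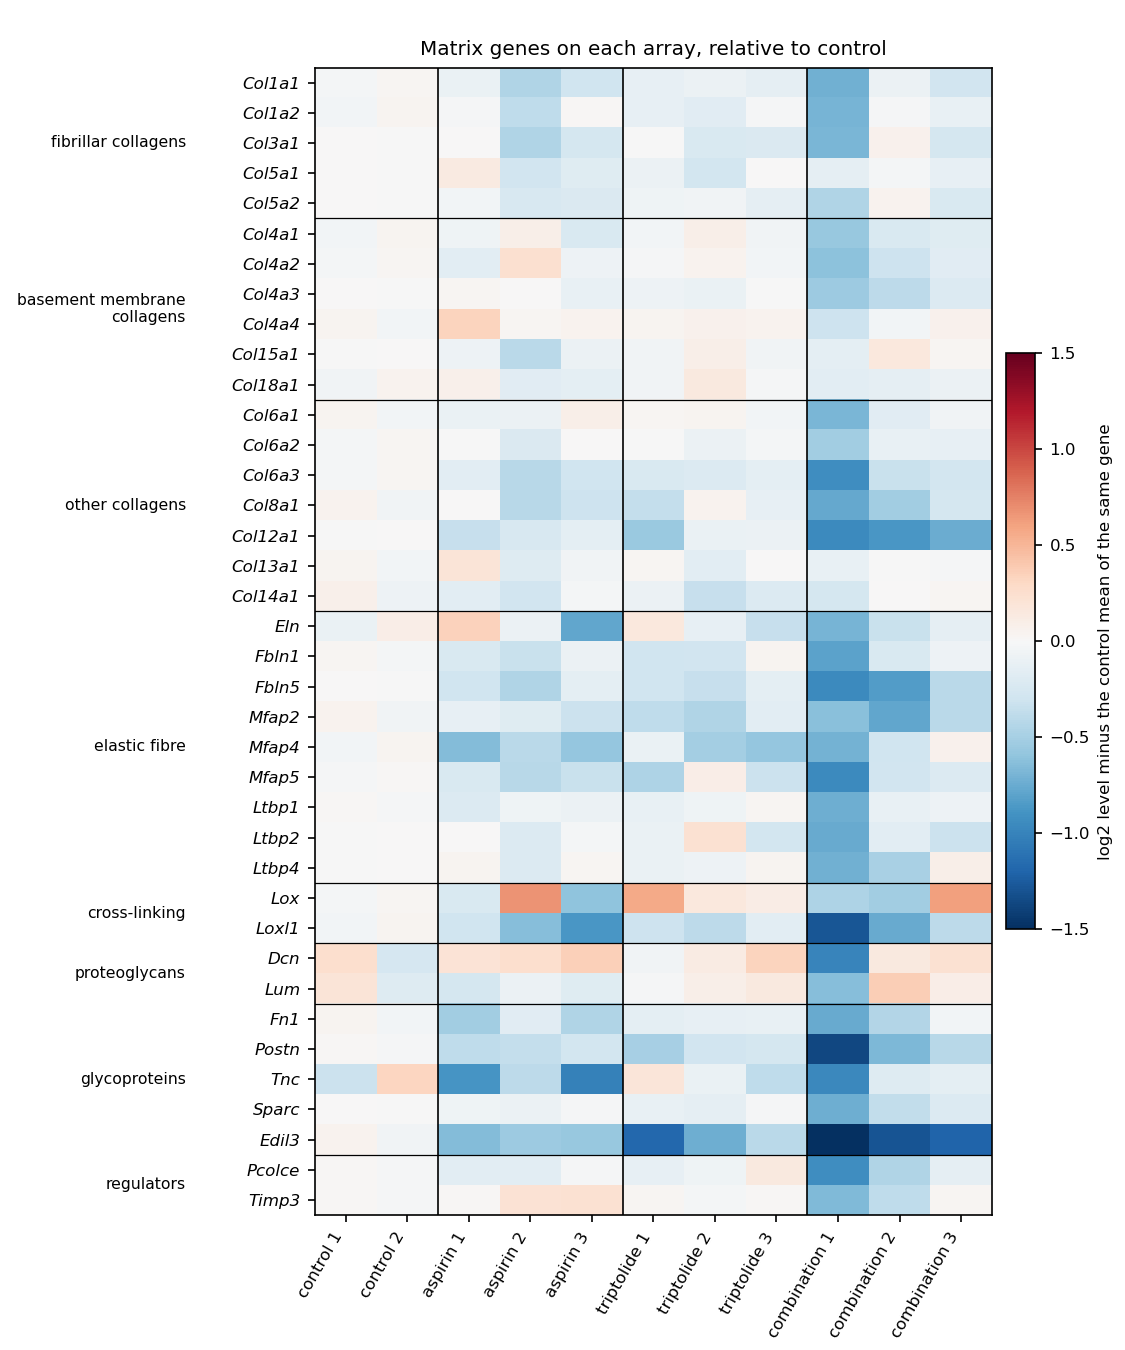
Log2 level of each of the 38 matrix genes (rows, grouped by role) on each of the 11 arrays (columns), minus the mean of the 2 control arrays for that gene; blue is lower than control, red higher, and the scale ends at 1.5 in either direction. Combination 1 is blue in all 38 rows, and Edil3 and Col12a1 are dark blue in all 3 combination columns.

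Among the matrix glycoproteins, Edil3, a secreted integrin ligand found on elastic fibres and vessels, had the largest difference of the 38 genes. It read 9.57 and 9.47 in the controls, 8.87, 8.98 and 8.96 with aspirin, 8.34, 8.79 and 9.12 with triptolide, and 7.80, 8.22 and 8.32 with the combination. The 3 combination arrays were the lowest of the 11, and no treated array reached a control array. Combination minus control was -1.41 ± 0.21 (SE), with an adjusted p of 0.058 in limma, and -1.25 without combination 1, with an adjusted p of 0.050.

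Postn, periostin, a matricellular protein of remodelling tissue, read 11.41 and 11.37 in the controls, 11.01, 11.04 and 11.11 with aspirin, 10.89, 11.10 and 11.13 with triptolide, and 10.03, 10.72 and 10.97 with the combination. All 9 treated arrays lay below both controls. Its difference was -0.82 ± 0.21 with the combination (limma adjusted p of 0.12) and -0.55 without combination 1. Sparc, a collagen-binding protein whose promoter is shown above, read 13.48 and 13.46 in the controls, 13.34 to 13.45 with triptolide, and 12.74, 13.10 and 13.27 with the combination. The combination arrays lay below all the others, at -0.43 ± 0.13 against control and -0.28 without combination 1.

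Fn1, fibronectin, onto which fibroblasts assemble other matrix proteins, differed by -0.41 ± 0.18 in the combination, or -0.24 without combination 1, and combination 3 lay just below control 2, both at 13.02. Tnc, tenascin C, an anti-adhesive protein of injured and developing tissue, had controls at 8.84 and 9.49 that were far apart, and the combination overlapped with them at 8.19, 8.97 and 9.02; its difference was -0.44 ± 0.29, or -0.17 without combination 1. As a group, the 5 glycoproteins had a median of -0.44 in the combination against control, all 5 below 0, and -0.28 with all 5 below 0 without combination 1.

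The elastic fibre genes were lower as a group as well: all 9 were below 0 in the combination against control, with a median of -0.39, and all 9 stayed below 0 without combination 1, at -0.24. Fbln5, fibulin 5, which tethers elastin to cells and is needed to assemble the fibre, read 10.70 and 10.68 in the controls, 10.38, 10.24 and 10.54 with aspirin, 10.39, 10.34 and 10.54 with triptolide, and 9.73, 9.85 and 10.28 with the combination. Every treated array was below both controls, and 2 combination arrays were the lowest of all. Combination minus control was -0.73 ± 0.15 (limma adjusted p of 0.081) and -0.62 without combination 1.

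Mfap2, a microfibril protein that binds fibrillin, read 10.58 and 10.47 in the controls, 10.40, 10.34 and 10.21 with aspirin, 10.15, 10.07 and 10.37 with triptolide, and 9.90, 9.75 and 10.13 with the combination. Again no treated array reached the controls. Its difference of -0.60 ± 0.13 (limma adjusted p of 0.085) was nearly the same without combination 1, at -0.59, and combination 2 was its lowest array.

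Mfap5, the other fibrillin-binding glycoprotein of this pair, differed by -0.48 ± 0.22 and by -0.25 without combination 1. Ltbp2, which binds microfibrils and fibulin 5, differed by -0.41 ± 0.18, or -0.24 without combination 1. Ltbp4, which guides elastin onto microfibrils in the lung, differed by -0.37 ± 0.19, or -0.20 without combination 1, with combination 3 at 12.34 above both controls. Ltbp1, which stores latent TGF-beta in the matrix, read 9.45 on combination 1 and 10.08 and 10.11 on the other combination arrays, against 10.20 and 10.17 in the controls. Its difference was -0.31 ± 0.17, and -0.09 without the low array.

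Eln, which encodes elastin itself, read 9.91 and 10.10 in the controls, 10.36, 9.92 and 9.22 with aspirin, 10.16, 9.88 and 9.66 with triptolide, and 9.31, 9.67 and 9.87 with the combination. The combination arrays lay just below the controls, but aspirin arrays spread more widely than that, with an SD of 0.57. Combination minus control was -0.39 ± 0.28, smaller than this SD, and -0.24 without combination 1. Fbln1, fibulin 1, also of basement membranes, differed by -0.37 ± 0.19, or -0.15 without combination 1, which read 9.54. Mfap4, a microfibril protein of vessel and alveolar walls, overlapped with the controls in the combination and is described with aspirin below.

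Of the cross-linking enzymes, Loxl1, the lysyl oxidase of elastic fibres, read 10.43 and 10.51 in the controls, 10.16, 9.83 and 9.59 with aspirin, 10.16, 10.07 and 10.30 with triptolide, and 9.18, 9.71 and 10.08 with the combination. All treated arrays lay below both controls, and aspirin and combination arrays overlapped. Combination minus control was -0.81 ± 0.23 (limma adjusted p of 0.15) and -0.57 without combination 1. Lox, the founding member of the family, had no such order: its aspirin arrays read 10.43, 11.33 and 10.06 and its combination arrays 10.20, 10.14 and 11.28, on both sides of the controls at 10.63 and 10.70.

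**Figure D2:**
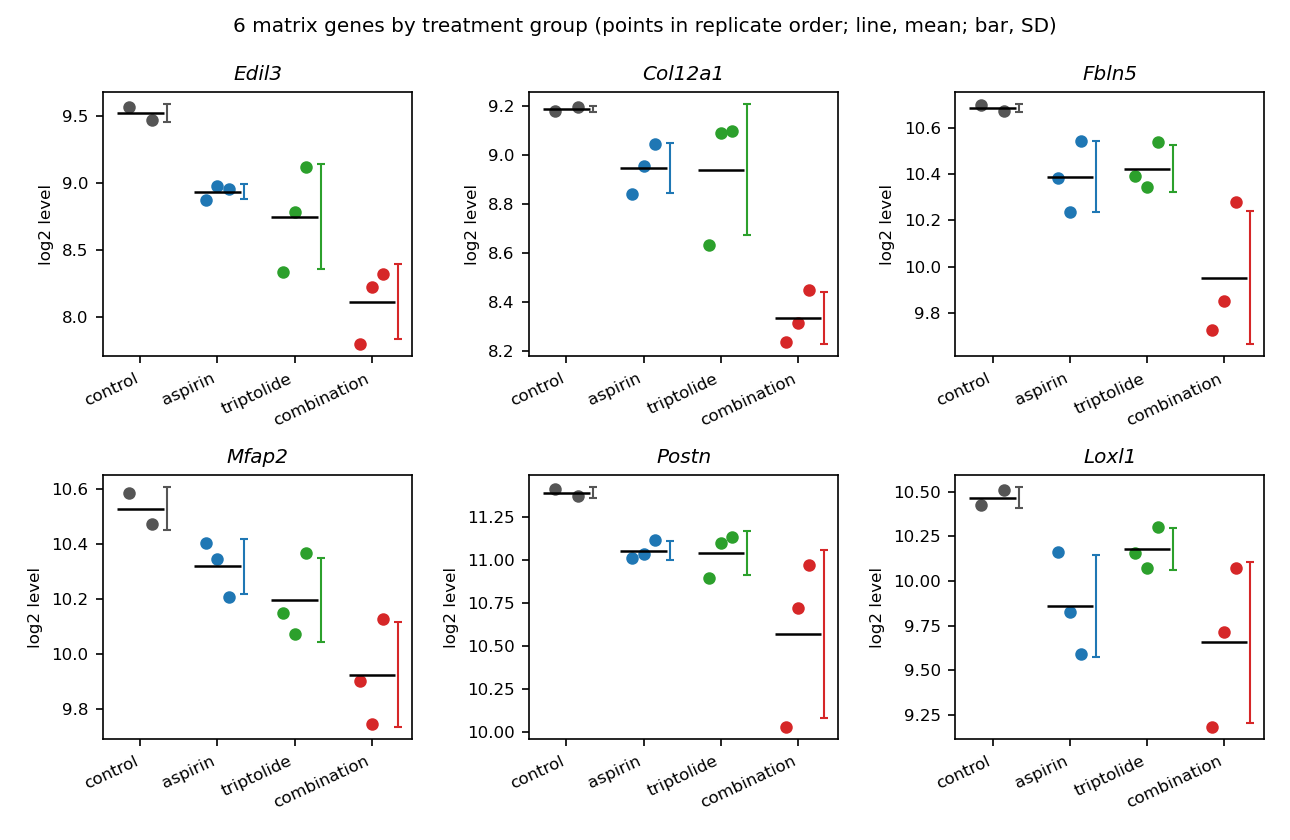
Log2 level of 6 matrix genes in each array (points, in replicate order), with the group mean (line) and SD (bar) for 2 control, 3 aspirin, 3 triptolide and 3 combination arrays; each panel has its own scale, which does not start at 0. In all 6 panels every treated array lies below both control arrays, and only for Edil3 and Col12a1 are the 3 combination arrays below all the other arrays.

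Among the collagens, Col12a1, a fibril-associated collagen that coats collagen I fibres, stood out. It read 9.18 and 9.20 in the controls, 8.84, 8.95 and 9.04 with aspirin, 8.63, 9.09 and 9.10 with triptolide, and 8.24, 8.31 and 8.45 with the combination. The combination arrays were close together and were the lowest of the 11. Combination minus control was -0.86 ± 0.14 (limma adjusted p of 0.058), and -0.81 without combination 1 (limma adjusted p of 0.050). Col14a1, the related fibril-associated collagen, differed by -0.07 ± 0.12, or 0.02 without combination 1, with combination 2 and combination 3 at 9.74 and 9.77, between the controls at 9.82 and 9.66.

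Col8a1, a short-chain network collagen of vessel walls, read 9.37 and 9.27 in the controls and 8.55, 8.80 and 9.05 in the combination. Its groups did not overlap, and the difference was -0.52 ± 0.17, or -0.39 without combination 1. Col6a3, a chain of the beaded filaments around cells, read 10.20 and 10.26 in the controls and 9.30, 9.89 and 9.95 in the combination, at -0.52 ± 0.17, or -0.31 without combination 1. Its partner chains Col6a1 and Col6a2, which neighbour each other on chromosome 10, differed by -0.30 ± 0.16 and -0.25 ± 0.13, and by -0.11 and -0.12 without combination 1. Col13a1, a collagen anchored in the cell membrane, differed by -0.04 ± 0.12, or -0.01 without combination 1.

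All 5 fibrillar collagens were below 0 in the combination, with a median of -0.28, and 2 of them, Col1a1 and Col5a1, the latter a chain that sets fibril width, had arrays that did not overlap with the controls, against 20.5% of all genes; without combination 1 the median was -0.09. Col1a1, a chain of the main fibrillar collagen, read 10.72 and 10.78 in the controls and 10.03, 10.66 and 10.46 in the combination, and Col1a2, its partner chain, 10.37 and 10.46 against 9.72, 10.39 and 10.30. Both had combination 1 well below the rest and combination 2 next to the controls. Col1a1 differed by -0.37 ± 0.16 and Col1a2 by -0.28 ± 0.19, or by -0.19 and -0.07 without combination 1. Col3a1, of stretchy tissues, and its chromosome 1 neighbour Col5a2 had combination 2 at 9.85 and 8.61, above both controls.

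Basement membrane collagens divided. Col4a3, a chain of the alveolar and glomerular basement membrane, read 9.67 and 9.65 in the controls, 9.68, 9.66 and 9.55 with aspirin, 9.58, 9.56 and 9.65 with triptolide and 9.11, 9.26 and 9.45 with the combination. The combination arrays were the lowest of the 11, and the single-drug arrays sat close to the controls. Its difference was -0.38 ± 0.11 (limma adjusted p of 0.14), or -0.30 without combination 1. Col4a4, its partner chain, overlaps it at 1 end on chromosome 1, and differed by -0.09 ± 0.12, with combination 3 at 9.25 above both controls; without combination 1 it was 0.01.

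Col4a1 and Col4a2, chains present in nearly all basement membranes, also overlap, on chromosome 8, and here both partners were lower. They read 10.30 and 10.37, and 10.27 and 10.33, in the controls, and 9.77, 10.10 and 10.15, and 9.68, 9.99 and 10.13, in the combination. Neither gene overlapped between these groups, at -0.33 ± 0.13 and -0.36 ± 0.14, or -0.21 and -0.24 without combination 1. Col18a1, whose end is released as endostatin, differed by -0.13 ± 0.10, or -0.11 without combination 1.

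The proteoglycans Dcn and Lum, small leucine-rich binders of collagen fibrils that lie next to each other on chromosome 10, were low on combination 1 and nowhere else in that group. Dcn read 12.41 and 11.91 in the controls and 11.17, 12.31 and 12.40 in the combination, and Lum 8.01 and 7.63 against 7.19, 8.19 and 7.92. Their differences turned from -0.20 and -0.05 to 0.19 and 0.24 without combination 1. Of the regulators, Pcolce, which speeds the trimming of procollagen, read 11.80 and 11.77 in the controls and 10.86, 11.33 and 11.65 in the combination, at -0.51 ± 0.19, or -0.30 without combination 1. Timp3, a matrix-bound inhibitor of metalloproteinases, read 12.67 and 12.64 in the controls and 11.99, 12.27 and 12.68 in the combination, so that combination 3 reached the controls; its difference was -0.34 ± 0.16, or -0.18 without combination 1.

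**Figure D3:**
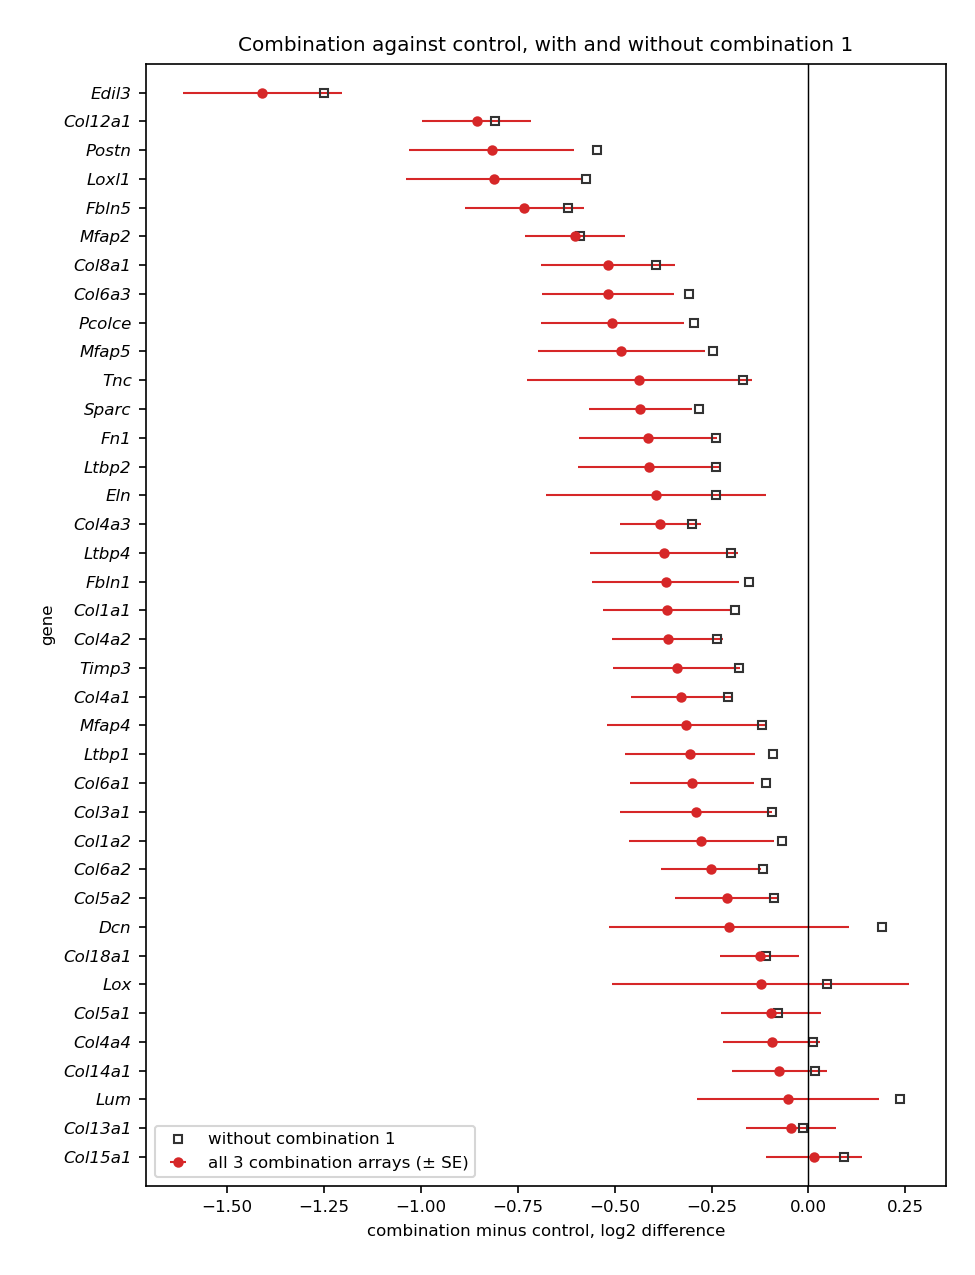
Combination minus control on the log2 scale for the 38 matrix genes (rows, ordered by size), with all 3 combination arrays (red points, bars are ± SE of the limma fit) and without combination 1 (open squares). Edil3 is at -1.41 and -1.25 and Col12a1 at -0.86 and -0.81, while Dcn and Lum move to the other side of 0.

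With aspirin alone, 35 of the 38 genes were below 0 against 51.7% of all genes, or 35 against 66.3% with each array centred on its median and 31 against 60.9% with quantile normalization. The median was -0.16, beside -0.36 for the combination, or -0.18 without combination 1, and 18 (47.4%) had aspirin arrays that did not overlap with the controls and were lower, against 16% of all genes; 1, Timp3, was higher without overlap, against 10%. By limma, 0 genes passed (percent called 0%), and 4 matrix genes were lower and 0 higher at an unadjusted p under 0.05, against 1.71% and 1.35% of all genes. These were Edil3 at -0.59 ± 0.21, Mfap4 at -0.54 ± 0.20, Loxl1 at -0.61 ± 0.23 and Tnc at -0.77 ± 0.29.

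Mfap4 read 11.95 and 12.03 in the controls, 11.35, 11.58 and 11.42 with aspirin, 11.89, 11.49 and 11.41 with triptolide, and 11.28, 11.69 and 12.06 with the combination. All aspirin and triptolide arrays were below both controls, and the combination arrays ran from the lowest to the highest of the 11. Tnc read 8.27, 8.77 and 8.15 with aspirin, just clear of the controls. The 5 glycoproteins had a median of -0.38 with aspirin, and none of the 5 overlapped with the controls, against 16% of all genes lower without overlap; all 9 elastic fibre genes were below 0, with a median of -0.21, and all 5 fibrillar collagens, at -0.17.

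Triptolide alone had 31 of the 38 genes below 0 against 55% of all genes, with a median of -0.09; with each array centred on its median it had 34 against 68.4%, and with quantile normalization 33 against 66.2%. Its arrays did not overlap with the controls and were lower for 15 genes (39.5%), against 13.3% of all genes, and higher for 2, Col4a4 and Lox, against 9.92%. By limma 0 genes passed (percent called 0%), and 2 matrix genes were lower and 0 higher at an unadjusted p under 0.05, against 1.66% and 1.16%: Edil3 at -0.77 ± 0.21 and Mfap2 at -0.33 ± 0.13. All 9 elastic fibre genes, all 5 glycoproteins and all 5 fibrillar collagens were below 0, with medians of -0.19, -0.13 and -0.12. The comparisons of each drug and of the combination share the same 2 control arrays, so their directions are not independent of each other. Triptolide 2 and triptolide 3 also had Y-linked levels of 9.36 and 9.08, above the controls at 5.94 and 5.81, so this comparison is partly mixed with that difference.

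The combination was also set against each drug, a difference that does not use the control means. The control arrays still enter its SE and p-values, because all 11 arrays share the fit. Y-linked genes differ here too: the combination arrays lie below all aspirin arrays and below 2 of the 3 triptolide arrays, and that difference enters the interaction as well. Against aspirin, 32 of the 38 genes were below 0 against 50% of all genes, with a median of -0.21, and 7 (18.4%) did not overlap and were lower, against 9.86%: Col4a2, Col4a3, Col12a1, Mfap2, Postn, Sparc and Edil3. None was higher without overlap, against 5.47% of all genes. At an unadjusted p under 0.05, 11 were lower and 0 higher, against 8.22% and 3.43%, and 0 passed the adjusted limma test (0% of all genes). Without combination 1 the median was -0.04, 21 genes were below 0 against 49.6% of all genes, and 7 were lower at an unadjusted p under 0.05, against 5.33%. Without combination 3, 32 genes were below 0, against 51.5% of all genes, and 8 passed the adjusted limma test, against 2.95% of all genes passing as lower. These 8 were Col4a3, Col12a1, Fbln5, Mfap2, Ltbp4, Sparc, Edil3 and Timp3. The arrays kept there include combination 1, and without combination 1 instead 0 of the 38 passed.

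Against triptolide, 34 genes were below 0 against 46.7% of all genes, with a median of -0.30, and 12 (31.6%) did not overlap and were lower, against 9.53%; 0 were higher, against 8.36%. The 12 included the basement membrane collagens Col4a1, Col4a2, Col4a3 and Col18a1 and the beaded filament chains Col6a1, Col6a2 and Col6a3. The rest were Col12a1, Fbln5, Sparc, Edil3 and Pcolce. At an unadjusted p under 0.05, 14 were lower and 0 higher, against 10.1% and 3.5%, and 0 passed the adjusted limma test (0% of all genes). Without combination 1 the median was -0.12, 28 genes were below 0 against 49.4% of all genes, and 6 were lower at an unadjusted p under 0.05, against 5%. Without combination 3, 35 were below 0 against 47.4%, 21 did not overlap and were lower against 21.4%, and 0 passed the adjusted limma test, against 0.1% of all genes passing as lower.

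Edil3 and Col12a1 were the genes of largest difference in both of these comparisons as well. Edil3 differed by -0.82 ± 0.18 from aspirin and by -0.64 ± 0.18 from triptolide, and Col12a1 by -0.61 ± 0.13 from either; without combination 1 these were -0.66, -0.48 and, for Col12a1, -0.56 from either. Whether the combination differed from the sum of both drugs was tested by the interaction, the combination minus aspirin minus triptolide plus control. No gene passed (percent called 0%), and the lowest adjusted p of a matrix gene was 0.895 in limma. At an unadjusted p under 0.05, 1 matrix gene was below the sum, Timp3 at -0.50 ± 0.22, against 2.23% of all genes, and 1 above it, Mfap4 at 0.62 ± 0.27, against 1.19%. Without combination 1 the values were -0.34 and 0.82. For Edil3 the interaction was -0.05 ± 0.28, and for Col12a1 -0.36 ± 0.19, or 0.11 and -0.32 without that array. The standard error of the interaction was thus about as large as many of the single-drug differences of these genes.

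Other genes of the same pathways were counted in the combination against control, where 10.6% of all genes were lower at an unadjusted p under 0.05; 0 genes of each list passed the adjusted limma test. Of 17 other basement membrane genes, 16 were below 0 and 10 lower at that p, with a median of -0.40 and -0.19 without combination 1. They included Pxdn, the peroxidase that cross-links collagen IV, at -0.92 ± 0.15 (adjusted p of 0.058), Hspg2, perlecan, at -0.54 ± 0.14, and Npnt, nephronectin, which is also among the fibroblast markers below, at -0.80 ± 0.23; without combination 1 these were -0.82, -0.39 and -0.53. Of 24 genes that modify and export collagen, 20 were below 0 and 11 lower, with a median of -0.25 and -0.13 without combination 1, among them the lysyl hydroxylase Plod1 at -0.63 ± 0.15 and the collagen galactosyltransferase Colgalt2 at -0.80 ± 0.16, or -0.50 and -0.68 without combination 1.

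Of 22 receptors that hold cells to matrix, 19 were below 0 and 10 lower at that p, with a median of -0.38, or -0.20 without combination 1; Itga1, a collagen-binding integrin chain, was at -0.91 ± 0.19, or -0.69 without it. Of 21 TGF-beta signalling genes, 17 were below 0 and 9 lower, with a median of -0.32, or -0.21 without combination 1, with Eng, a co-receptor that is also an endothelial marker, at -0.76 ± 0.13, or -0.75 without it. Matrix-degrading enzymes and their inhibitors differed less, with 16 of 25 below 0, 5 lower and a median of -0.09, or -0.08 without combination 1. Other proteoglycans and glycoproteins had 21 of 27 below 0, 6 lower and a median of -0.24, or -0.06 without combination 1. Of 13 other elastic fibre genes, 8 were below 0 and 0 lower, with a median of -0.11, or -0.08 without combination 1. Of 23 collagen genes outside the 38, only 3 were below 0 and 0 lower, with a median of 0.08, or 0.07 without combination 1; 1 was higher at that p, Col10a1, of hypertrophic cartilage, at 0.33 ± 0.15.

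Markers of several cell types read lower in the combination beside the matrix genes. Of all genes, 47.2% were below 0 and 10.6% lower at an unadjusted p under 0.05 in limma. Without combination 1 these shares were 50.2% and 8.68%. Of 19 fibroblast markers, 18 were below 0 and 9 lower at an unadjusted p under 0.05, with a median of -0.51; without combination 1, 15 were below 0 and 7 lower, with a median of -0.27. Cd34 was at -0.93 ± 0.16 and Pdgfrb at -0.98 ± 0.18, or -0.77 and -0.86 without that array. Both were named for their small p and do not stand for the whole list. Thy1 read 9.61, 9.58 and 9.69 in the combination, above the controls at 9.37 and 9.46. Pdgfra read 11.14, 11.52 and 12.10 in the combination, the last of these between the controls at 12.10 and 12.06. The mean level of the fibroblast list, relative to its mean over the arrays, was 0.25 and 0.17 in the controls and -0.65, -0.25 and 0.11 in the combination. All 15 endothelial markers were below 0 and 14 lower, with a median of -0.78. Without combination 1 there were again 15 and 14, with a median of -0.69. The endothelial list had levels of 0.40 and 0.31 in the controls against -0.72, -0.38 and -0.23 in the combination. All 12 alveolar type 1 markers were below 0 and 10 lower, with a median of -0.59, and without combination 1 again 12 and 10, with a median of -0.44. Smooth muscle and pericyte markers had 8 of 15 below 0 and a median of -0.03, but 2 of 15 below 0 and a median of 0.10 without combination 1. All 10 alveolar type 2 markers were below 0 and 4 lower, with a median of -0.41, or -0.19 without combination 1. All 9 mesothelial markers were below 0 and 5 lower, with a median of -0.47, or -0.25 without combination 1. Airway markers went the other way, with 6 of 8 above 0 and a median of 0.13, or 0.16 without combination 1. Of these, 2 were higher at that p, against 3.41% of all genes. The 11 leukocyte markers had 2 below 0 and a median of 0.21, or 0.11 without combination 1. With triptolide alone, all 15 endothelial markers were below 0 and 8 lower at an unadjusted p under 0.05, against 1.66% of all genes, with a median of -0.37, and fibroblast markers had 13 of 19 below 0 and a median of -0.13. With aspirin alone, fibroblast markers had 15 of 19 below 0 and a median of -0.22, and endothelial markers 13 of 15 and -0.11. All 12 heart muscle markers were above 0 with either drug, with medians of 0.53 for aspirin and 0.49 for triptolide, and 3 and 2 of them higher at an unadjusted p under 0.05, against 1.35% and 1.16% of all genes; aspirin 2 and triptolide 3 had the highest levels of this list, at 0.47 and 0.84. The part of these lists in the matrix gene differences was not tested.

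**Figure D4:**
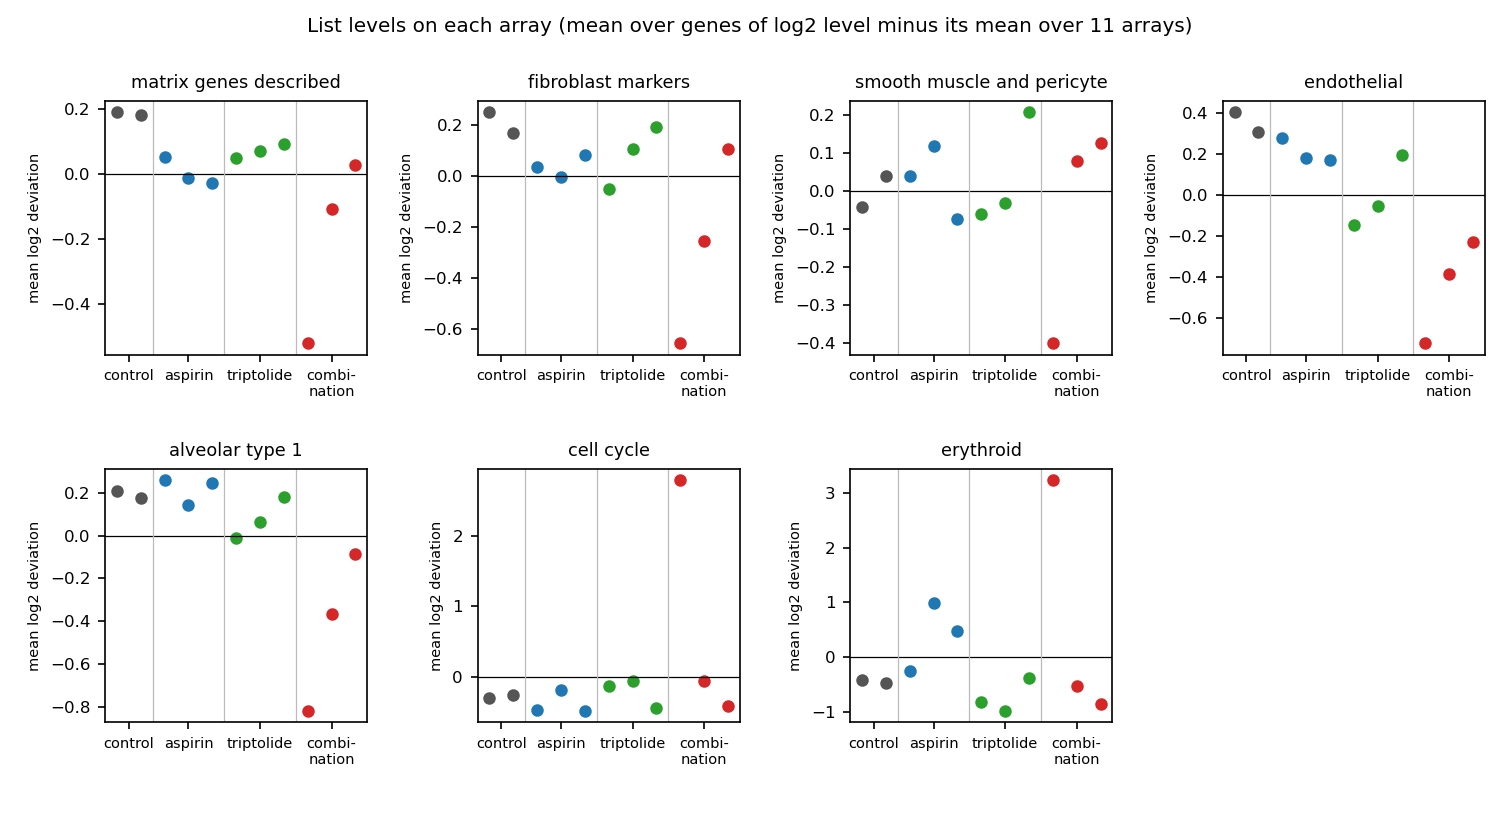
Mean log2 level of the 38 matrix genes and of 6 marker lists on each of the 11 arrays, each gene relative to its own mean over the arrays (y axis, log2; 0 is the mean over the arrays); points are single arrays in replicate order by group, and each panel has its own scale. The matrix genes are at 0.19 and 0.18 in the controls and at -0.52, -0.11 and 0.03 in the combination, and cell cycle and erythroid genes are high on combination 1.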

How the data were processed

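Expression was measured on Affymetrix mouse arrays, 1 per sample, from total RNA of lung. The deposited values are log2 levels over 35556 rows; RMA and Partek are named in the submitters' processing notes, with no version; what each of them did is not given in the sources used here. They come without a detection call or background level, and precision is limited by how many arrays there are. GEO's platform annotation gave the names: 21789 rows carried 1 symbol, 1621 several and 12146 none. The row with the highest mean stood for a gene, which gave 19938 genes, and no symbol needed updating against the GRCm38.p6 RefSeq table.

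Groups came from the sample titles. The linear model (limma 3.58.1, R 4.3.3, functions lmFit and eBayes) held the means of 4 groups over 11 arrays, with no covariate or filter, with 7 residual and 3.68 prior degrees of freedom. Two-sided p-values were adjusted after Benjamini and Hochberg across the 19938 genes, with a threshold of 0.05. Groups did not overlap where every array of one lay below every array of the other. The scripts were checked on simulated data. For the combination against control, 15 of 50 genes changed by a log2 of 0.5 were recovered there, and 45 of 50 changed by 1. A count of 0 passing therefore does not show that genes with small differences were unchanged. All 38 measured genes are named; of each other list, up to 4 genes with the smallest unadjusted p could be named, and those printed are examples. List levels are means over genes of the log2 level minus the gene's mean over the arrays. The members and lists were chosen with earlier results of these data known. Alternatives were the scaling, the row for a gene, a filter on low levels, the variance estimate and array weights, the groups in the fit, the replicate number as a block, a Y-linked covariate, and each array left out. The sample titles do not say whether equal replicate numbers mark paired arrays. Residual correlations of same-numbered arrays ran from -0.14 to 0.33, and of others from -0.38 to 0.34. These ranges overlapped, but most same-numbered pairs were above 0 and most others below. Whether the arrays were paired was not tested.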

Additional observations from a re-analysis of the deposited data

How the results depend on the processing

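The number of matrix genes that passed limma's adjusted test was 0 in each of the 6 comparisons and changed as follows. These counts are given without the share of all genes that passed in the same setting. They therefore describe the settings and are no result about the matrix genes in particular. With array weights estimated gene by gene, 5 passed for aspirin against control, 10 for the combination against control and 5 for the combination against aspirin. For the combination against control, 4 passed with each array centred on its median, 2 with the 13292 genes that a filter on low levels left, and 2 with the Y-linked level in the model. With the replicate block, which assumes that equal replicate numbers pair the arrays, 3 passed there and no other count changed. Leaving out 1 array gave 0 to 12 for the combination against control (12 without combination 3, 2 without triptolide 1), 0 to 8 against aspirin and 0 for the rest. Array weights by REML, chosen after seeing the data, did not converge; the weights ran from 0.107 for combination 1 to 43.5 for aspirin 3; they gave 16 for aspirin, 1 for triptolide and 15 for the combination against control, 18 and 14 for the combination against aspirin and triptolide, and 9 for the interaction. Over the arrays left out, the median difference ran from -0.19 to -0.14 for aspirin, -0.09 to -0.08 for triptolide and -0.48 to -0.18 for the combination against control, from -0.34 to -0.036 and -0.41 to -0.12 for the combination against aspirin and triptolide, and from -0.18 to 0.044 for the interaction, where it turned above 0 without combination 1. The cause was not tested. Of the 38 genes, 32 kept their sign in all of these settings other than the REML weights for the combination against control, 24 for aspirin and 21 for triptolide against control, 19 and 26 for the combination against aspirin and triptolide, and 12 for the interaction.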
